A study of Homo sapiens with 6 samples.

Results

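The aminoacyl-tRNA synthetases are the enzymes that join each amino acid to its transfer RNA. A list of 37 genes was followed here, made up of 19 cytosolic synthetase genes, 16 mitochondrial synthetase genes and the 2 scaffold genes AIMP1 and AIMP2. Each gene was read from probe sets that the array annotation gives to that symbol alone. Of the 37 genes, 33 could be read in this way, among 19775 genes with a probe set of their own. All 33 were bright enough to be tested among 12839 genes. They were 17 cytosolic synthetases, 15 mitochondrial synthetases and AIMP1. MARS1, QARS1 and TARS2 have only probe sets that they share with the symbol of a microRNA gene, and AIMP2 has none in the annotation used, so these 4 genes were not analysed here. The data come from Daoy cells, an established human medulloblastoma line, that were left untreated or were exposed to 1 µM thapsigargin (Tg) for 3 h or 8 h, with 2 arrays in each of the 3 groups. No vehicle-treated group is described for the untreated cells, and all arrays come from this 1 line, with no genetic change stated. Tg blocks the calcium pump of the endoplasmic reticulum and activates the unfolded protein response (UPR). The comparison asks how the mRNAs of the charging enzymes of the cytosol and of the mitochondria stood after each time of Tg.

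Most organelle and cytosolic synthetases are made from separate nuclear genes, whose names end in 2 and 1 respectively, and both kinds are translated in the cytosol. GARS1 and KARS1 are exceptions, since each of these genes makes both the cytosolic and the mitochondrial enzyme, and they were counted with the cytosolic genes. Several cytosolic synthetases are held in a large complex with AIMP1 and AIMP2. In the UPR the kinase PERK phosphorylates eIF2α, which lowers general translation and raises that of ATF4, a transcription factor known to drive genes of amino acid synthesis, amino acid import and cytosolic tRNA charging. ATF4 binds with C/EBP proteins to a composite DNA element, searched here as TGATGNAA.

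The letters of this element, on either strand, occurred in the promoters of 7 of the 16 cytosolic genes with a promoter in the reference (43.8%), of 1 of 14 mitochondrial genes (7.14%) and of neither scaffold gene. Among all genes with a promoter there, 4.46% had a match. A promoter was the stretch from 250 bases before to 50 bases after a RefSeq start site on GRCh38.p14, and 32 of the 37 genes had one. The matches are shown because the fold changes of genes with and without them are set side by side in the results. Each line gives 30 bases, 5′ to 3′ on the strand of the gene, with the matching letters in capitals.
AARS1 (chr16:70289675-70289704, minus strand): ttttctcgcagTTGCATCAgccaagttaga
CARS1 (chr11:3057407-3057436, minus strand): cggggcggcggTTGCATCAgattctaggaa
GARS1 (chr7:30594834-30594863, plus strand): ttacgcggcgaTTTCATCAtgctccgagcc
IARS1 (chr9:92293692-92293721, minus strand): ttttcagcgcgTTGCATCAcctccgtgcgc
MARS1 (chr12:57488053-57488082, plus strand): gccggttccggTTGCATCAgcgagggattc
NARS1 (chr18:57621804-57621833, minus strand): tctacgctctcTGATGCAAcgccggaatcg
TARS1 (chr5:33440956-33440985, plus strand): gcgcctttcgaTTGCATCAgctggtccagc
YARS2 (chr12:32756076-32756105, minus strand): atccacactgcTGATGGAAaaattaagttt

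In these lines TTGCATCA and TTTCATCA are the element read from the opposite strand. AARS1, CARS1, IARS1, MARS1, NARS1 and TARS1 share the same 8 letters, while GARS1 and YARS2 each have another letter at the free position of the element. Counted from 0 at the start site, the capitals of the cytosolic genes begin between positions -33 and 14, except for AARS1 at -187. YARS2, the mitochondrial tyrosine enzyme, has its match at -197. No factor binding was measured, and a match describes letters only.

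The replicate numbers marked a difference that runs through the results. Over all probe sets tested, the deviations of same-numbered arrays from the means of their groups correlated at 0.259 to 0.323. Signal here is the scanner intensity summarised per probe set, in arbitrary units. The 18 probe sets for RNAs that are added at hybridization had a geometric mean signal between 7762 and 11671 for replicate 1 but between 2718 and 2840 for replicate 2. Array medians were 84.8 to 103 for replicate 1 and 69.7 to 75.3 for replicate 2. Changes within a replicate number are therefore given for many genes, as the log2 ratio of the Tg array to the untreated array with that number. Of 7 neural and medulloblastoma markers 6 could be tested, from OTX2 at 95.6 to 146 up to VIM at 31016 to 52822, and ATOH1 was too dim. At 8 h these 6 had a median log2 fold change of -0.38, and GLI2 passed as lower with the replicate block (-1.18). Of the other cell types, the endothelial genes PECAM1, KDR and TEK were dim but tested, with signals of 62.8 to 359, while CDH5, VWF and the immune genes PTPRC, CD14 and CD3E were too dim. The part of these markers in the results was not tested. An array reads mRNA relative to the total on it, so a change in a transcript per cell and a change in total mRNA cannot be told apart.

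The untreated arrays already differed in their cytosolic synthetases. Of 17 cytosolic genes, 12 had the higher signal on untreated replicate 2, as did 12 of 15 mitochondrial genes and 6895 of all 12839 genes. The cytosolic log2 difference from untreated replicate 1 had a median of 0.74 and ranged from -0.52 for HARS1 to 1.74 for AARS1. For 6 cytosolic genes the difference was over 1, which held for 6.48% of all genes tested. The 15 mitochondrial genes differed by a median of 0.22, with none over 1, and the median over all genes was 0.05. Among 12 genes listed as ATF4 and its known targets, replicate 2 was higher for all 12, by a median of 2.32. ATF4 itself had a signal of 4505 on untreated replicate 1 and of 20999 on untreated replicate 2. The part of this difference in the fold changes against untreated was not tested, beyond the values given without each array.

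At 8 h of Tg the cytosolic synthetases stood higher than in untreated cells, with a median log2 fold change of 0.43, while the mitochondrial synthetases stood lower, with a median of -0.23. The median over all genes tested was -0.09. Without untreated replicate 1 the cytosolic median was 0.13, and without untreated replicate 2 it was 0.79. Without Tg 8 h replicate 2 the mitochondrial median was -0.37. Within replicate 1 the cytosolic median was 0.60 and within replicate 2 it was 0.25, and the mitochondrial medians were -0.32 and -0.25. In limma, across all 6 arrays and without the replicate number, 0 of the 33 genes passed an adjusted p of 0.05, where 0.646% of all genes passed as higher and 0.21% as lower. At an unadjusted p under 0.05, 4 cytosolic genes were higher and 1 mitochondrial gene was lower, where 5.44% and 6.64% of all genes were. A local pooled error test, written here after the one that the methods of the study name, also called 0 of the 33, and called 1.08% of all genes as higher and 0.218% as lower. The study does not state the threshold of its own test, so these counts do not stand for its calls. With the replicate number as a block in limma, 6 of 17 cytosolic genes passed as higher, where 4.76% of all genes did, and 1 of 15 mitochondrial genes passed as lower, where 3.79% did. Leaving out untreated replicate 1 or Tg 8 h replicate 1 lost most or all of these 6 calls. The calls over all genes fell there too. Such fits leave 1 array in a group, so their counts are not given.

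**Figure D1:**
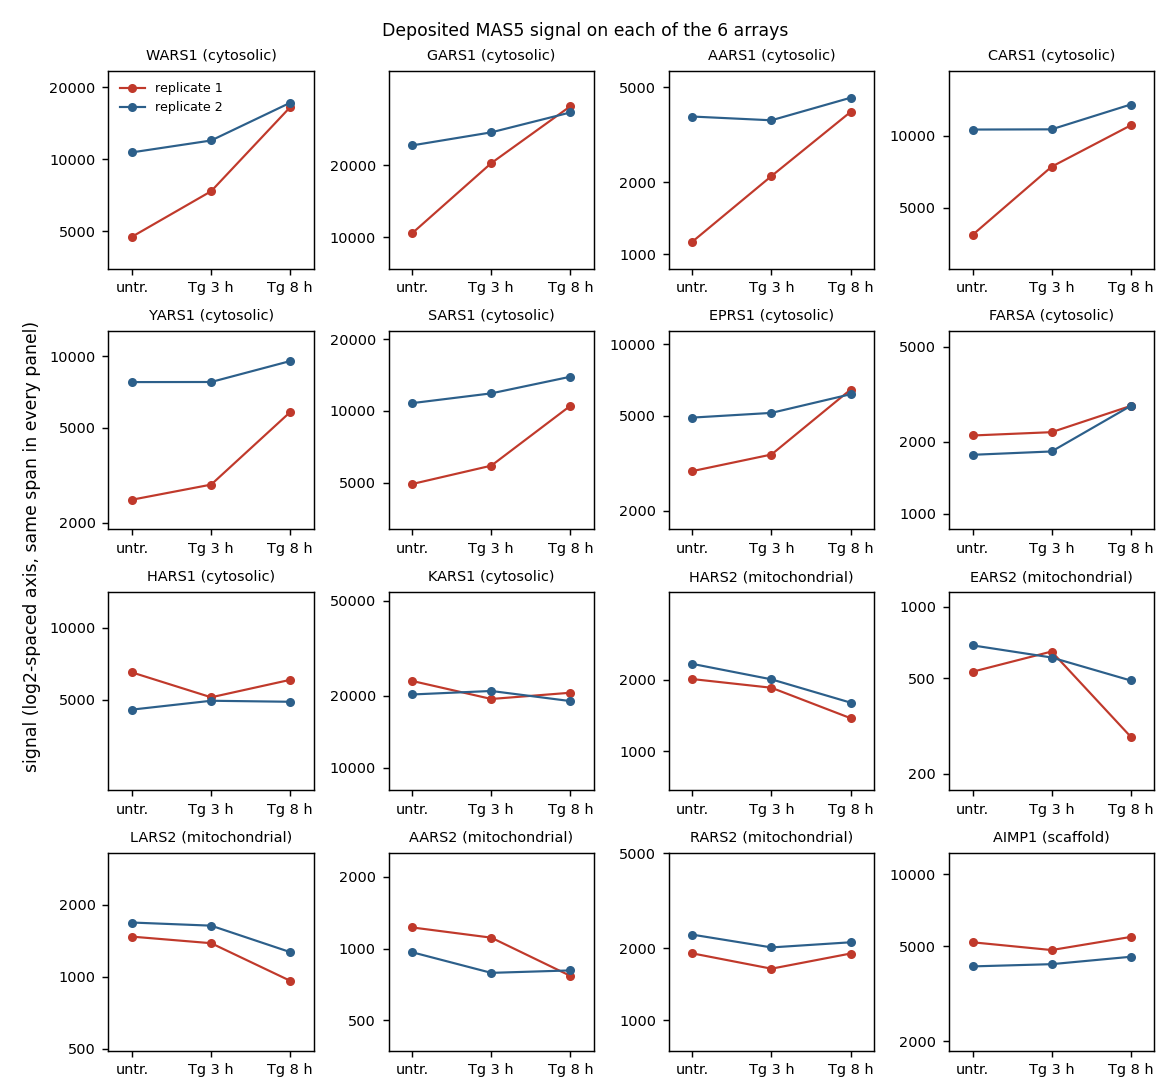
Deposited signal (vertical log axis, arbitrary units, the same span in each panel) of 16 genes in untreated cells (untr.) and after 3 h and 8 h of Tg, with red points for replicate 1, blue points for replicate 2 and lines that join arrays of the same number. For WARS1, GARS1, AARS1 and CARS1 the untreated array of replicate 1 lies well below the other 5, while the 2 lines of HARS2 run side by side.

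WARS1 charges the tryptophan tRNA and is also known as an interferon-induced gene whose shortened form acts outside the cell against vessel growth. It had the largest change of the 33 at 8 h, with each gene read from its brightest probe set. Its signal was 4740 and 10689 on the untreated arrays, 7348 and 11985 after 3 h of Tg, and 16536 and 17248 after 8 h, with replicate 1 given before replicate 2 here and in what follows. Both 8 h arrays were above all other arrays. The log2 fold change at 8 h was 1.25 ± 0.40 (SE, 2 arrays per group), a 2.37-fold difference, with a limma adjusted p of 0.307 without the block and 0.00768 with it. This SE, like each ± below, is from the fit without the block. With the block the SE of WARS1 was 0.21. Within replicates 1 and 2 the changes were 1.80 and 0.69. A second WARS1 probe set had 1.61 at 8 h, with a limma adjusted p of 0.191 without the block and 0.00581 with it. Tested probe sets of SARS1 and CARS1 that were not the ones read reached 1.73 and 1.47.

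GARS1, which makes the glycine enzyme of both compartments, read 10397 and 24247 in untreated cells, 20437 and 27495 at 3 h, and 35362 and 33310 at 8 h. The 8 h arrays were again the highest, and the lowest by a wide margin was untreated replicate 1. Its log2 fold change at 8 h was 1.11 ± 0.39, with a limma adjusted p of 0.376, or 0.0238 with the block. The changes within replicates were 1.77 and 0.46. GARS1 also had the highest value of the cytosolic genes at 3 h, 0.58, which did not pass the test.

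For AARS1, the alanine enzyme, the signals were 1128 and 3769 in untreated cells, 2123 and 3636 at 3 h, and 3938 and 4518 at 8 h. Its 2 untreated arrays were further apart than those of any other of the 33 genes. The 8 h groups did not overlap, but the higher untreated array came close to the lower 8 h array. The log2 fold change of 1.03 ± 0.51 had a limma adjusted p of 0.570, and 0.0632 with the block, so AARS1 did not pass in either fit. It was 1.80 within replicate 1 and 0.26 within replicate 2.

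CARS1, the cysteine enzyme, had signals of 3841 and 10609 in untreated cells, of 7413 and 10631 at 3 h, and of 11044 and 13506 at 8 h. Here too the untreated and 8 h arrays did not overlap, and the replicate 2 arrays at 3 h and without Tg were nearly level. The log2 fold change at 8 h was 0.94 ± 0.44, with a limma adjusted p of 0.541 without the block and 0.0422 with it. The values within replicates were 1.52 and 0.35.

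SARS1 and YARS1, the serine and tyrosine enzymes, had similar changes but overlapping groups on the probe sets read. SARS1 read 4945 and 10787 in untreated cells, 5903 and 11853 at 3 h, and 10514 and 13914 at 8 h. Its 8 h array of replicate 1 lay below the untreated array of replicate 2. Its change of 0.73 ± 0.44 on the log2 scale, from 1.09 and 0.37 within replicates, gave a limma adjusted p of 0.655 without the block and 0.0312 with it. YARS1 read 2504 and 7783 in untreated cells, 2896 and 7790 at 3 h, and 5830 and 9534 at 8 h, so that replicate 2 was above replicate 1 in every group. Its log2 fold change of 0.76 ± 0.60, from 1.22 and 0.29 within replicates, did not pass, with an adjusted p of 0.769 in limma and of 0.0503 with the block.

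The phenylalanine enzyme is built from the products of FARSA and FARSB, and these 2 genes had different values. FARSA, which codes for the catalytic subunit, read 2123 and 1762 in untreated cells, 2192 and 1820.1 at 3 h, and 2823 and 2823 at 8 h. Unlike the genes above, FARSA was lower on untreated replicate 2 than on replicate 1, and its change at 8 h was 0.41 within replicate 1 and 0.68 within replicate 2. The log2 fold change of 0.55 ± 0.21 had a limma adjusted p of 0.426 without the block and of 0.0468 with it. On a second tested probe set of FARSA the 8 h value was 0.0029 on the log2 scale, -0.07 and 0.08 within replicates, and did not pass (adjusted p = 0.995 in limma with the block), so FARSA was called on 1 of 2 probe sets. FARSB, the other subunit, read 3981 and 3953 in untreated cells, 3238 and 3681 at 3 h, and 3804 and 3834 at 8 h. Its log2 fold change at 8 h was -0.05 ± 0.19 (adjusted p = 0.973 in limma), and its tested probe sets pointed both ways.

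EPRS1 joins a glutamate and a proline enzyme in 1 protein of the multisynthetase complex. Its signal was 2936 and 4919 in untreated cells, 3445 and 5148 at 3 h, and 6442 and 6161 at 8 h, with both 8 h arrays above all others. The log2 fold change at 8 h was 0.73 ± 0.30, with a limma adjusted p of 0.480, or 0.0434 with the block, and it was 1.13 and 0.32 within replicates. Neither other tested probe set of EPRS1 passed with the block (0.87 and 0.47, adjusted p = 0.0632 and 0.114 in limma). EPRS1 was thus called on 1 of 3 probe sets. The other synthetases of that complex that could be read were IARS1, KARS1, LARS1 and RARS1, for isoleucine, lysine, leucine and arginine, and their log2 fold changes at 8 h were 0.38, -0.13, 0.09 and -0.01. None of these 4 passed in either fit. KARS1 read 23105 and 20283 in untreated cells, 19420 and 20978 at 3 h, and 20624 and 19029 at 8 h, so its 6 signals lay close together with overlapping groups. AIMP1, a scaffold of the complex that is also released from cells as the precursor of a cytokine, read 5199 and 4120.1 in untreated cells, 4824 and 4210 at 3 h, and 5473 and 4521 at 8 h. Its log2 fold change was 0.10 ± 0.22 (adjusted p = 0.947 in limma). The 5 synthetases of the complex had a median of 0.09 at 8 h and the 12 other cytosolic genes one of 0.64. With the block, 1 of the 5 and 5 of the 12 passed, where 4.76% of all genes passed as higher. The difference between these groups was not tested.

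The 8 h values of TARS1, NARS1 and VARS1, for threonine, asparagine and valine, were log2 fold changes of 0.43, 0.33 and 0.14, and these genes did not pass in either fit. HARS1, the histidine enzyme, had the smallest change of the cytosolic genes, with signals of 6513 and 4551 in untreated cells, 5125 and 4957 at 3 h, and 6066 and 4908 at 8 h. The arrays of all 3 groups overlapped, and the log2 fold change at 8 h was 0.0031 ± 0.24 (adjusted p = 0.998 in limma). By structural class, the 8 cytosolic class I genes had a median of 0.56 and the 9 class II genes one of 0.43. EPRS1, at 0.73, joins an enzyme of each class and was counted with class I, and the order of the 2 medians depends on that choice. The difference between the classes was not tested. Counting groups without any test, 7 of 17 cytosolic genes had both 8 h arrays above both untreated arrays, where 15.3% of all genes did. The 7 were AARS1, CARS1, EPRS1, FARSA, GARS1, NARS1 and WARS1.

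**Figure D2:**
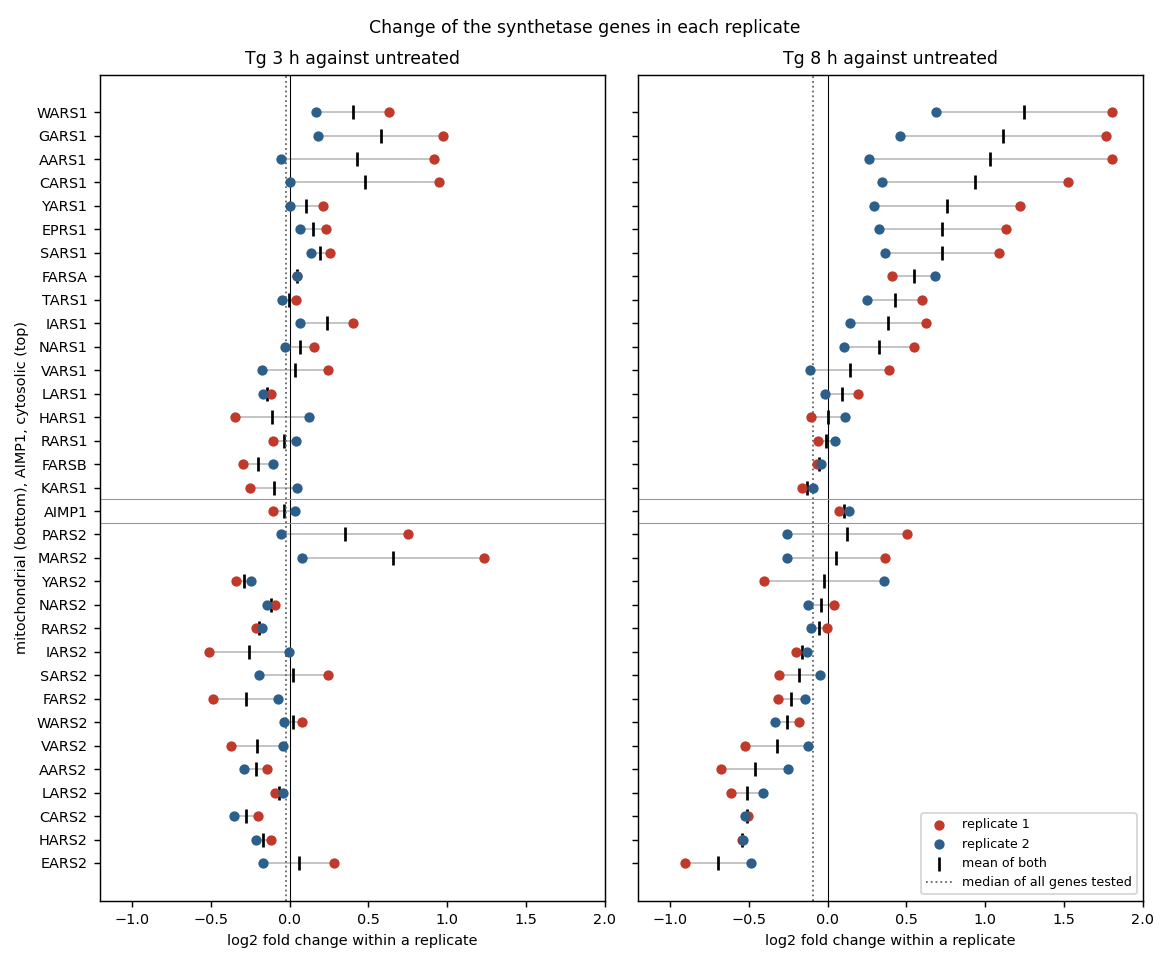
Log2 fold change of each gene within replicate 1 (red) and replicate 2 (blue) at 3 h and 8 h against untreated, with a black tick for the mean of both and a dotted line for the median of all genes tested. At 8 h the means of the cytosolic genes run from -0.13 to 1.25 and those of the mitochondrial genes from -0.70 to 0.12.

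The mitochondrial synthetases had values on the other side of 0. HARS2, the mitochondrial histidine enzyme, read 2009 and 2326 in untreated cells, 1848 and 2004 at 3 h, and 1378 and 1601 at 8 h. Both replicates stepped down from untreated to 3 h and again to 8 h, and the 2 replicates gave the same change at 8 h, -0.54 and -0.54. The log2 fold change of -0.54 ± 0.20 had a limma adjusted p of 0.415, and of 0.0437 with the block, which made HARS2 the only mitochondrial gene that passed in the blocked fit. That call was lost in the blocked fit when any 1 of the 4 untreated and 8 h arrays was left out, and with each array centred on its median. With that centring, calls as lower over all genes also fell, from 486 to 317. They fell too without each of these 4 arrays except Tg 8 h replicate 2. Without each of these arrays, the log2 fold change in the fit without the block was between -0.65 and -0.43.

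EARS2, the mitochondrial glutamate enzyme, had the largest mitochondrial value. It read 534 and 688 in untreated cells, 649 and 612 at 3 h, and 285 and 491 at 8 h, so that only the 8 h arrays were low. Its log2 fold change at 8 h was -0.70 ± 0.31, from -0.90 and -0.49 within replicates, and did not pass, with an adjusted p of 0.519 in limma and 0.127 with the block. LARS2, for leucine, read 1473 and 1688 in untreated cells, 1383 and 1638 at 3 h, and 962 and 1269 at 8 h. Its change of -0.51 ± 0.23, from -0.61 and -0.41 within replicates, did not pass either, with an adjusted p of 0.516 in limma and 0.0728 with the block. A second tested probe set of LARS2 had a value of -0.12. CARS2, for cysteine, read 350 and 513 in untreated cells, 304 and 401 at 3 h, and 246 and 357 at 8 h. The CARS2 groups overlapped, since untreated replicate 1 lay below Tg 8 h replicate 2, but the change was -0.51 in replicate 1 and -0.52 in replicate 2. Its adjusted p was 0.687 in limma and 0.240 with the block, and its tested probe sets, like those of EARS2, pointed both ways.

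AARS2, the mitochondrial partner of AARS1, read 1225 and 965 in untreated cells, 1110 and 791 at 3 h, and 768 and 810 at 8 h. Both 8 h arrays lay below both untreated arrays, and the log2 fold change was -0.46 ± 0.25, with -0.67 and -0.25 within replicates (limma adjusted p = 0.605, or 0.189 with the block). WARS2 read 971 and 1007 in untreated cells, 1026 and 985 at 3 h, and 857 and 800 at 8 h, a log2 fold change of -0.26 that did not pass. PARS2, for proline, read 378 and 567 in untreated cells, 637 and 546 at 3 h, and 535 and 474 at 8 h. Its value of 0.12 at 8 h was the highest of the mitochondrial genes and joined 0.50 in replicate 1 with -0.26 in replicate 2. YARS2, whose promoter holds the only mitochondrial match, read 901 and 1356 in untreated cells, 713 and 1143 at 3 h, and 680 and 1734 at 8 h. It had the smallest mitochondrial change, -0.03 ± 0.45, from -0.41 in replicate 1 and 0.35 in replicate 2.

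The other 7 mitochondrial genes had log2 fold changes at 8 h between -0.32 for VARS2 and 0.05 for MARS2, and none passed in either fit. In all, 11 of 15 mitochondrial genes were lower at 8 h in both replicates and 0 were higher in both, against 43.5% and 26.0% of all genes. For the cytosolic genes the counts were 2 lower in both and 11 higher in both, of 17. Both 8 h arrays lay below both untreated arrays for 7 of the 15, where 26.7% of all genes did so, and for 1 of the 17 cytosolic genes, FARSB. With each array centred on its median, which moved the median over all genes from -0.09 to 0.00, the mitochondrial median was -0.14. Before that centring, 10 of the 15 lay below the median over all genes.

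Reading the 2 forms of an enzyme on the same array removes what the scaling does to both. For 11 amino acids the cytosolic and the mitochondrial gene share a name and both were read. At 8 h the cytosolic gene had the higher fold change in all 11 pairs, and in both replicates in 9 of them, the exceptions being RARS in replicate 1 and YARS in replicate 2. The median difference between the forms was 0.60 on the log2 scale, 0.91 within replicate 1 and 0.40 within replicate 2. Tryptophan and alanine had the widest gaps, 1.50 and 1.50, of which 1.02 and 0.51 were seen within replicate 2. The cysteine pair differed by 1.45, with 2.03 in replicate 1 and 0.87 in replicate 2. The arginine pair differed least, by 0.05. An exact two-sided permutation test of 2 arrays against 2 cannot give a p below 0.333, so no pair could pass a threshold. At 3 h the cytosolic gene had the higher value in 10 of 11 pairs, by a median of 0.24. These 11 differences share their arrays and are not independent of each other.

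**Figure D3:**
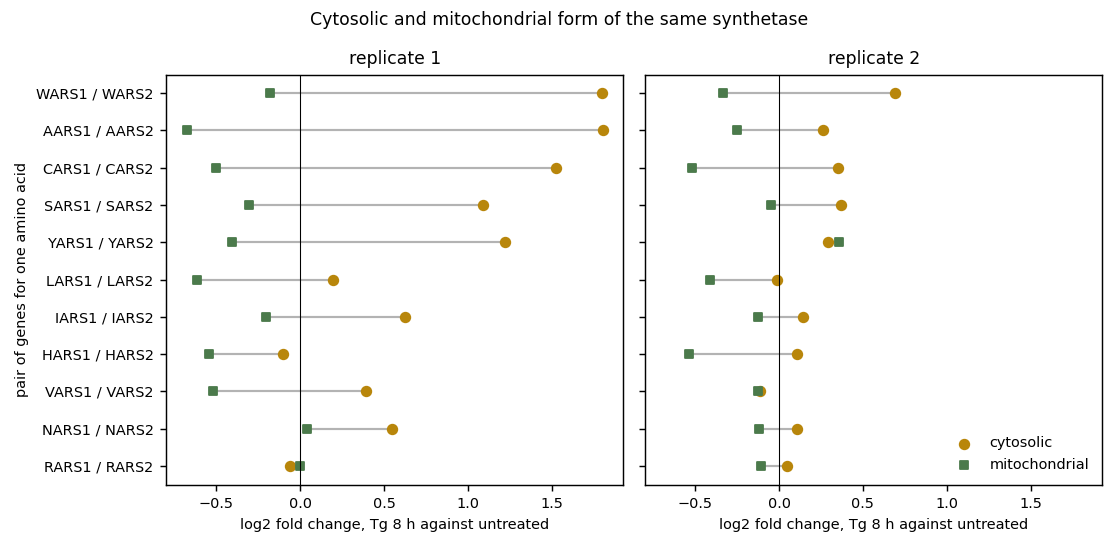
Log2 fold change at 8 h against untreated of the cytosolic gene (circle) and the mitochondrial gene (square) of each pair, within replicate 1 on the left and replicate 2 on the right. The circle lies to the right of the square in both panels for 9 of the 11 pairs, and the gaps are wider in replicate 1, with a median of 0.91, than in replicate 2, with one of 0.40.

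HARS1 and HARS2, the histidine pair, start from the same stretch of DNA in opposite directions. Their RefSeq start sites on GRCh38.p14 are 140691370 on the minus strand and 140691455 on the plus strand of chromosome 5, with 84 bases between them at chr5:140691371-140691454. That stretch is shown 5′ to 3′ on the plus strand, in which no letters matched the element.
HARS1-HARS2: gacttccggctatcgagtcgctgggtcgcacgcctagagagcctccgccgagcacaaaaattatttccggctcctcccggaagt

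HARS1 and HARS2 differed by 0.54 in their log2 fold changes at 8 h, 0.44 within replicate 1 and 0.65 within replicate 2, with HARS2 the lower in each. At 3 h the difference was 0.06, from -0.23 and 0.34 in the 2 replicates.

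The enzymes with unlike partners were set side by side in the same way. EPRS1 exceeded the mitochondrial glutamate gene EARS2 by 1.42 at 8 h, 2.04 and 0.81 within replicates, and exceeded the mitochondrial proline gene PARS2 by 0.61. FARSA exceeded FARS2, the mitochondrial phenylalanine gene, by 0.77, and FARSB exceeded it by 0.17.

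At 3 h little could be told from the spread between arrays. The cytosolic genes had a median log2 fold change of 0.06 and the mitochondrial genes one of -0.17, against -0.02 over all genes. In limma 0 of the 33 passed, with or without the block, where 0.0701% of all genes passed as higher without the block, and 1.17% as higher and 0.0779% as lower with it. At an unadjusted p under 0.05 the count was also 0 for the 17 cytosolic and the 15 mitochondrial genes, where 3.26% of all genes were higher and 1.24% lower. The cytosolic values ran from -0.20 for FARSB to 0.58 for GARS1. Within replicate 1 the cytosolic median was 0.21 and within replicate 2 it was 0.04. MARS2, the mitochondrial methionine enzyme, had the highest value at 3 h, 0.66, from signals of 156 and 249 in untreated cells and 367 and 264 at 3 h. Its change was 1.23 in replicate 1 and 0.08 in replicate 2, and at 8 h its signals of 202 and 208 lay within the untreated range.

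Between 3 h and 8 h, a comparison that leaves out the untreated arrays, the cytosolic median was again 0.43, with 0.39 in replicate 1 and 0.23 in replicate 2. The 8 h array was the higher in both replicates for 15 of 17 cytosolic genes, where that held for 25.6% of all genes, and both 8 h arrays lay above both 3 h arrays for 9 of the 17, where 14.0% of all genes did so. Of the 15 mitochondrial genes 2 were higher in both replicates and 8 lower in both, where 37.6% of all genes were lower in both, and their median was -0.23. In this comparison 0 of the 33 passed in limma, with or without the block, on the probe set read for each gene. A second tested probe set of WARS1 passed as higher with the block (1.27, from 1.88 and 0.66 within replicates, adjusted p = 0.0375 in limma). With the block 1.53% of all genes passed as higher and 1.72% as lower, and without it 0 genes did. At an unadjusted p under 0.05, 1 cytosolic gene was higher and 1 mitochondrial gene lower, where 2.77% and 5.05% of all genes were.

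The size of the change depended on the replicate. For 12 of the 17 cytosolic genes the 8 h value was larger in replicate 1 than in replicate 2. That held for 6 of the 15 mitochondrial genes and for 6257 of all 12839 genes. The 8 h value was over 1 for 7 cytosolic genes in replicate 1, where 7.27% of all genes were, and for 0 in replicate 2, where 4.35% were. The difference between the 2 arrays of a group, replicate 2 less replicate 1, had a cytosolic median of 0.74 without Tg, of 0.49 at 3 h and of 0.01 at 8 h. For the mitochondrial genes the same medians were 0.22, 0.12 and 0.18. The cytosolic genes that were lower on untreated replicate 1 were also those with the larger step from 3 h to 8 h in replicate 1, 2 quantities that share no array with each other. Over the 17 cytosolic genes Pearson's r was 0.76 and Spearman's rho 0.72. Over the 15 mitochondrial genes they were -0.17 and -0.06, and over all genes 0.06 and 0.05. Genes on the same arrays are not independent replicates, so these are given as a description.

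**Figure D4:**
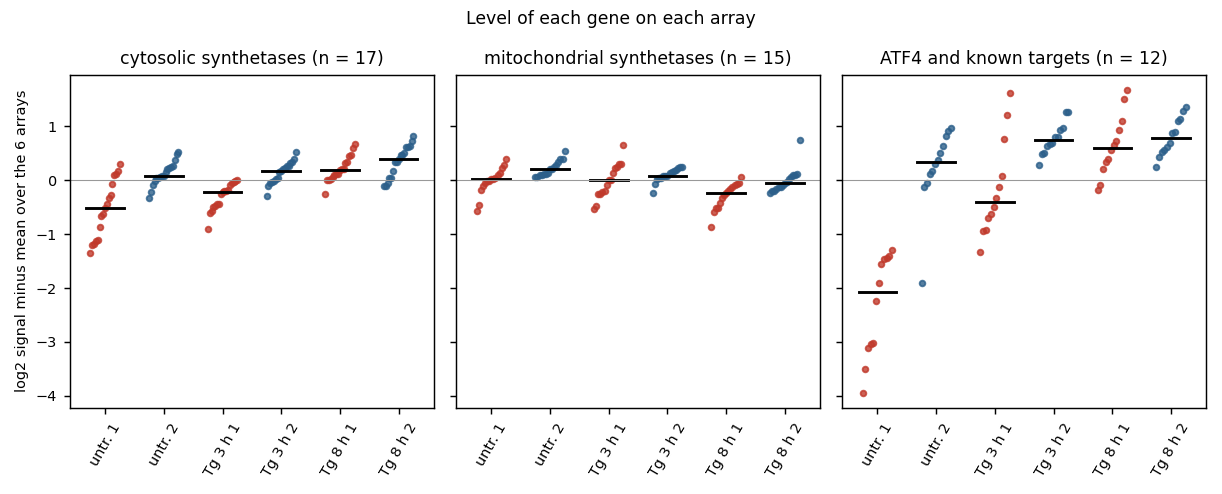
Log2 signal of each gene on each array less its mean over the 6 arrays, for the cytosolic genes, the mitochondrial genes and the ATF4 list, with 1 point per gene, a bar for the median, and red and blue for replicates 1 and 2. Untreated replicate 1 is the lowest array for the cytosolic genes and the ATF4 list, and the mitochondrial medians stay closer to 0.

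The cytosolic genes with the element in their promoter were set beside those without it. The 6 with a match that could be read, AARS1, CARS1, GARS1, IARS1, NARS1 and TARS1, were all higher on untreated replicate 2, by 0.40 to 1.74. The 8 cytosolic genes with a promoter and no match had a median difference of -0.10, with a range from -0.52 to 1.17. At 8 h the 6 genes with a match had a median log2 fold change of 0.68, 1.07 within replicate 1 and 0.26 within replicate 2. The 8 without a match had a median of 0.27, 0.17 within replicate 1 and 0.22 within replicate 2. The ranges overlapped, from 0.33 to 1.11 with a match and from -0.13 to 1.25 without. WARS1, which had the largest change on the probe sets read, had no match in its window.

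Other genes of the same pathways were counted for comparison. The 12 genes of the ATF4 list had a median log2 fold change of 0.96 at 3 h and of 1.42 at 8 h. At 8 h the median was 2.68 within replicate 1 and 0.48 within replicate 2, and all 12 had the larger value in replicate 1. In limma without the block 1 of the 12 passed at 8 h, where 0.646% of all genes passed as higher. It was DDIT3, which codes for the stress factor CHOP. With the block 6 of the 12 passed, where 4.76% of all genes did. The local pooled error test written here called 6 of the 12 as higher at 8 h, where it called 1.08% of all genes. DDIT3 read 405 and 1654 in untreated cells, 19271 and 15025 at 3 h, and 20009 and 15123 at 8 h, which made 4.41 on the log2 scale at 8 h, 5.63 and 3.19 within replicates (limma adjusted p = 0.0211). TRIB3, SESN2 and SLC7A11 had values of 2.83, 2.69 and 2.44 and passed with the block, though within replicate 2 they were 1.03, 0.95 and 0.74. ASNS, which makes asparagine, read 1296 and 10740 in untreated cells and 9645 and 13158 at 8 h, so the same untreated array was low as for the cytosolic synthetases.

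Of 13 other genes linked to tRNAs and their charging, such as those of the mitochondrial glutamine pathway, 8 could be tested. Of these 8, 0 passed at 8 h with or without the block, and their median was -0.15. MTFMT, which formylates the mitochondrial initiator methionine tRNA, had the largest value, -1.01 (-1.54 and -0.49 within replicates), with signals of 669 and 354 in untreated cells, 331 and 318 at 3 h, and 231 and 252 at 8 h (adjusted p = 0.355 in limma, 0.0783 with the block). The 4 cytosolic elongation factors that were tested had a median of -0.02 and the 8 mitochondrial translation factors one of -0.01, and 0 of these 12 passed in either fit. EEF2, which moves the ribosome along the mRNA, had a value of 0.12, and TUFM, the mitochondrial elongation factor that brings charged tRNA to the ribosome, one of 0.06.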

How the data were processed

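The authors hybridized biotin-labelled RNA of Daoy cells to Affymetrix whole-genome expression arrays. They deposited MAS5 signal intensities, scaled per array to a common trimmed mean (500.07 to 500.08 here). Replicates were not pooled. No depth applies; 2 arrays per group limit the precision.

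Of 54675 probe sets, the 27616 that reached a signal of 100 on 2 or more of the 6 arrays were tested. Of all probe sets, 41097 had 1 gene symbol in the platform annotation, 1801 several and 11777 none. A gene was read from its own probe set with the highest mean log2 signal. Of 17 listed genes with more than 1 tested probe set, 13 had all in 1 direction at 8 h. Log2 signals of all 6 arrays were fitted with limma 3.58.1 (R 4.3.3; Python 3.11.15 and pandas 2.3.3 otherwise) with a term for group and an intensity trend. P-values are two-sided, with Benjamini-Hochberg adjustment over all tested probe sets and a threshold of 0.05. An alternative added the replicate number to this fit as a block. The numbers pair the arrays: the study describes independent experiments, and same-numbered arrays deviated together in all 3 pairs of groups (0.259 to 0.323; 0.657 to 0.70 over the 12451 probe sets with a mean signal over 500). An own implementation of the local pooled error test named in the study's methods, other scalings and filters, each array left out and the mean over probe sets were also run. The fits were also run on simulated data drawn without a replicate effect, so that run cannot check the block.

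The members and lists were chosen with earlier results of these data known. Values on every array are given for the 6 cytosolic and 4 mitochondrial genes with the largest change at 8 h, the gene of each compartment with the smallest, AIMP1, GARS1, KARS1, EPRS1 and the partners of the named cytosolic genes. SARS1, FARSA, FARSB and MARS2 were added after their values were seen. P-values measure only the spread between these arrays, which may be technical.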

Additional observations from a re-analysis of the deposited data

How the results depend on the processing

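Of 1056 values of single synthetase genes under 16 alternatives, 974 kept their direction and their side of the threshold, 7 newly passed, all with the replicate block, and 75 took the other sign without ever passing. The replicate block took the genes called at 8 h from 0 to 6 (cytosolic, higher) and from 0 to 1 (mitochondrial, lower). It changed no other count of the 33. Alternatives to the blocked fit were chosen after seeing the data. There the 6 became 3 with a gene's probe sets averaged, where 452 of all genes passed as higher against 611 in the blocked fit. They became 0 without the intensity trend. The count of 1 mitochondrial call, HARS2, became 0 with median centring, where 317 of all genes passed as lower against 486. It was also 0 without the intensity trend. With 1 untreated or 8 h array left out, the calls of both compartments changed, as did those over all genes. Without the trend the blocked fit called 0 of all genes.

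The cytosolic median at 8 h (0.43) was 0.13 to 0.79 with 1 array left out, the lowest without untreated replicate 1 and the highest without untreated replicate 2. At 3 h (0.06) it was -0.19 to 0.37, from the same arrays, and 0.24 with the mean of probe sets. The mitochondrial median at 8 h (-0.23) was -0.37 to -0.20 with 1 array left out and -0.14 with median centring. With the mean of probe sets it was -0.16, where the median over all genes was -0.10. At 3 h (-0.17) the mitochondrial median was -0.23 to 0.0025 with 1 array left out, -0.18 with median centring and -0.067 with the mean of probe sets. Leaving out GARS1 and KARS1 left the cytosolic median at 8 h at 0.43. The cause of these moves was not tested.

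With 2 arrays per group and 1 of 2 untreated arrays far from the other for many cytosolic genes, the size of a change rests on single arrays. No vehicle control, protein level or tRNA charging was measured on these arrays.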
